A study of Mus musculus with 8 samples.

Results

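The cell cycle genes described here are 46 genes of DNA replication and mitosis, listed by name, and measured in ascending aorta of Fbn1mgR/mgR and wild-type mice. A gene was measured through the transcript cluster (the array's unit for 1 transcribed locus) that carried its symbol alone. This gave 43 of the 46 genes, 15 of 16 S-phase genes and 28 of 30 mitotic genes, out of 30145 genes with such a cluster; each of the 43 had 1 cluster. Clusters named for Mcm7 and Foxm1 also carry other symbols and were not used, and the signal of Ccnb1 was not analysed here. The promoters of Mcm7 and Ccnb1 were still included in the sequence search below. The tissue came from male mice aged 10 weeks on a C57BL/6J background. Fbn1mgR/mgR mice were the mutant group; the genotype is homozygous for mgR, an allele of Fbn1 that lowers the expression of fibrillin-1 in every cell and is used as a model of severe Marfan syndrome with aortic aneurysm. Wild-type mice came from the same crosses of heterozygous carriers. Each genotype had 4 arrays, named mgR611, mgR612, mgR613 and mgR614 for the mutant and WT675, WT676, WT742 and WT744 for the wild type. Whether each array was a separate mouse is not stated in the labels, and the p-values therefore describe variation among these arrays, which could be partly technical. A check of the Fbn1 signal was not analysed here.

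A dividing cell copies its DNA in S phase and separates the copies in mitosis. E2F transcription factors, released when cyclin-dependent kinases phosphorylate the retinoblastoma protein, switch on the genes of replication. Later in the cycle the B-MYB and FOXM1 complexes switch on the mitotic genes, many of which carry a promoter element called the cell cycle genes homology region, or CHR. Both gene sets are low in resting cells, and most cells of an adult aorta are at rest, so the signal of these genes is commonly read as a measure of how many cells in a tissue are cycling.

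All 43 measured genes had a higher mean signal in the Fbn1mgR/mgR than in the wild-type arrays, whereas 46.1% of the 32957 clusters tested did. Of these genes, 2 rose past an adjusted p of 0.05 and 0 fell (in limma, 0 were lower even at an unadjusted p under 0.05). They were Mcm6, a subunit of the replicative helicase, and Prc1, a bundler of spindle microtubules. Calls over all tested clusters came to 1.54% higher and 0.558% lower. The count of members higher at an unadjusted p under 0.05 was 27 of 43, or 62.8%, against 7.45% of all tested clusters. The 4 mutant arrays lay entirely above the 4 wild-type arrays for 10 of 43 members, or 23.3%, against 5.26% of all tested clusters. The median log2 difference, Fbn1mgR/mgR minus wild-type, was 0.44 for S-phase and 0.61 for mitotic members, and -0.0175 over all tested clusters. The members vary together from array to array, so these counts do not add up as independent observations. In whole tissue, more cells of a cycling type and more RNA per cell cannot be told apart.

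The arrays differed within each genotype before any comparison. WT744 had the highest wild-type signal for 38 of 43 members, and mgR613 and mgR614 were both above mgR611 and mgR612 for 36. Thymocyte markers (10 of 12 listed genes measured, such as Dntt, Cd8a, Cd8b1 and Rag2), which mark a tissue with many dividing cells next to the ascending aorta, followed part of the same order. Their mean log2 signal was 6.07, 5.0, 7.09 and 6.76 in mgR611, mgR612, mgR613 and mgR614, against 6.22, 6.23, 5.92 and 7.54 in WT675, WT676, WT742 and WT744. None of the 10 passed limma in either direction (0 at an unadjusted p under 0.05), 1 was in the dim range (a mean in either genotype of at most 4.11, the 95th percentile of olfactory receptor genes), and their median difference was -0.18. The array mgR612 was the lowest of all 8 in thymocyte markers, and mgR613 was the highest mutant array in them. The arrays mgR611, mgR612, mgR613 and mgR614 lay above every wild-type array for 11, 26, 42 and 40 of 43 members. For single arrays the share over all clusters was not counted. With the thymocyte mean as a covariate, the median differences were 0.47 for S-phase and 0.67 for mitotic members. In that fit 3 members were called, and among all tested clusters 408 were called higher and 121 lower. Without mgR613 and WT744, the arrays highest in these markers, 43 of 43 differences remained above 0 and 24 had an unadjusted p under 0.05, while 0 members were called (117 clusters were called higher and 31 lower). Of 19 macrophage markers 17 rose, with array means of 9.06 to 9.63 in the mutant and 7.39 to 7.72 in the wild type, and their part in the members' differences was not tested. B cell markers had array means of 4.30 to 5.18 in the mutant and 4.05 to 4.22 in the wild type, with all 7 differences above 0 (median 0.48), 4 of the 7 in the dim range and 1 of 6 tested, Fcrla, called higher. Endothelial markers had means of 9.19 to 9.96 in the mutant and 9.71 to 10.3 in the wild type (median difference -0.49), and 1 of 9, Erg, fell (adjusted p = 0.0447). Brown fat markers set mgR614 and WT676 apart, at 9.29 and 9.48, from the other 6 arrays at 5.98 to 7.39, and 0 of 11 tested were called (0 at an unadjusted p under 0.05 in limma). The part of these markers in the members' differences was not tested, except that a brown fat covariate was tried. Smooth muscle markers, which define the aortic wall, had array means of 11.5 to 12.4 in the mutant and 12.2 to 12.9 in the wild type. None of 12 was in the dim range, 10 had differences below 0 (median -0.52), 0 were called, and 5 were lower before adjustment. Of 9 fibroblast markers (median difference 0.085), 1, Col1a1, was called higher (limma adjusted p = 0.00837). Erythroid progenitor markers had 0 of 4 tested called. Bone marrow granulocyte progenitor markers had 0 of 3 tested called and 7 of 8 in the dim range. They averaged 4.32 on mgR613, against 3.55 to 3.73 on the other arrays. That mean rested on Ngp (7.36), Ltf (5.02) and Camp (4.94), while the rest of the list lay at 3.22 to 3.75 on mgR613. The part of these lists in the members' differences was not tested.

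**Figure D1:**
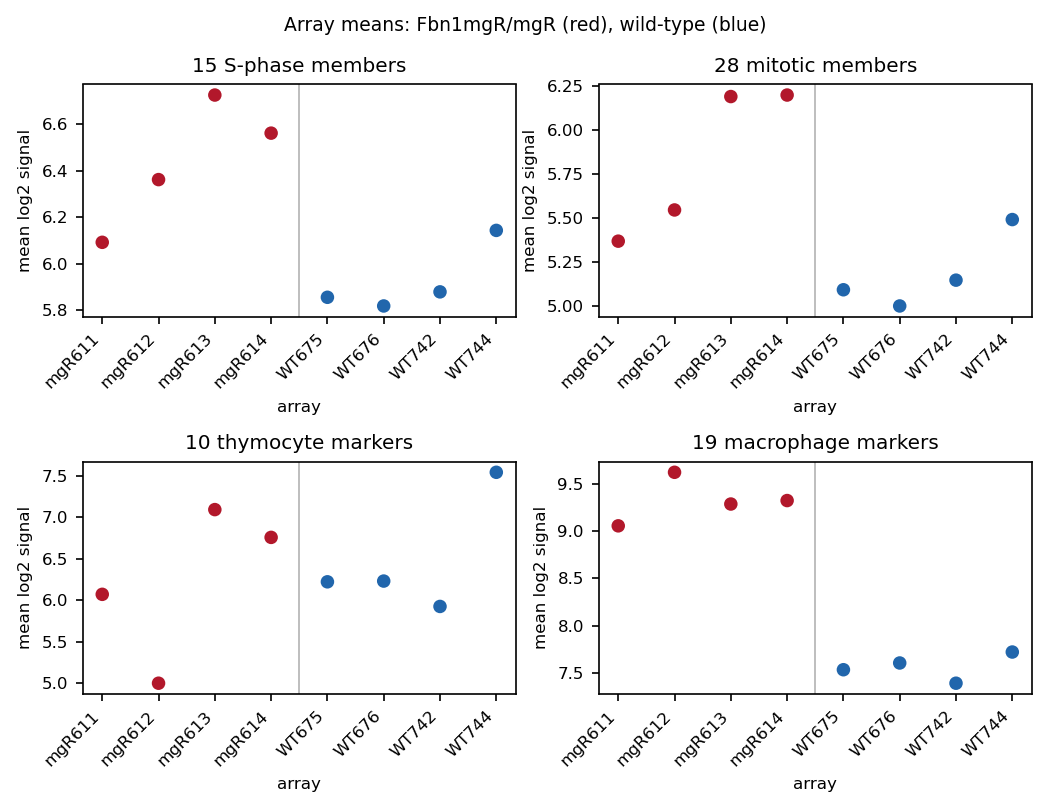
Mean log2 signal (vertical axis, a separate scale in each panel) of the 15 S-phase members, the 28 mitotic members, 10 thymocyte markers and 19 macrophage markers on each array (horizontal axis; Fbn1mgR/mgR in red, wild-type in blue). The mitotic members reach 6.19 and 6.20 on mgR613 and mgR614 and 5.49 on WT744, the highest arrays of each genotype, and thymocyte markers are highest on WT744 and lowest on mgR612.

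Promoter sequence is shown here for the 3 of each phase with the smallest p among those with a window at the annotated start of the gene. RefSeq windows of 300 bases (250 before and 50 after the start, assembly GRCm38.p6) were present for 39 of the 46 genes. They were searched on both strands for the CHR word TTTGAA and for 4 E2F words, TTTCCCGC, TTTCGCGC, TTTGCCGC and TTTGGCGC. Capitals mark these words or their reverse complements, and overlapping matches run together. Prc1 lies at chr7:80294201-80294500, plus strand, Cdk1 at chr10:69352863-69353162, minus strand, Plk1 at chr7:122159185-122159484, plus strand, Mcm6 at chr1:128359656-128359955, minus strand, Mcm5 at chr8:75109259-75109558, plus strand and Tyms at chr5:30073576-30073875, minus strand, each printed 5′ to 3′ in the direction of its gene.
Prc1: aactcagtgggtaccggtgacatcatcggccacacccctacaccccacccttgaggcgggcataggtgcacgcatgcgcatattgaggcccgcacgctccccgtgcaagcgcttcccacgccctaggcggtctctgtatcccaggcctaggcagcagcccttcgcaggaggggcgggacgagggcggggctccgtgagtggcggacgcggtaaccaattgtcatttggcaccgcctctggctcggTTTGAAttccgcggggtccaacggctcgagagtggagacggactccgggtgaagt
Cdk1: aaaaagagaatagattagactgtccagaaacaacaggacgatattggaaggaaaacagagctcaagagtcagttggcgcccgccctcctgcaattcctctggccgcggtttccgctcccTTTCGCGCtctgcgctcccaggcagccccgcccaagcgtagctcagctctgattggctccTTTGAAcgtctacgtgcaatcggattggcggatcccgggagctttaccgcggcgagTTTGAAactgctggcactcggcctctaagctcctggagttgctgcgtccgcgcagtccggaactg
Plk1: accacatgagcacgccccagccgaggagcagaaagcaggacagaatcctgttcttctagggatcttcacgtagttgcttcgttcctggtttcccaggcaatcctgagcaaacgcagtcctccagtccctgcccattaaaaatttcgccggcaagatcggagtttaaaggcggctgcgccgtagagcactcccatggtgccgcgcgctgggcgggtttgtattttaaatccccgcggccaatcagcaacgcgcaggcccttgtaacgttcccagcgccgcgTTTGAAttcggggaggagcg
Mcm6: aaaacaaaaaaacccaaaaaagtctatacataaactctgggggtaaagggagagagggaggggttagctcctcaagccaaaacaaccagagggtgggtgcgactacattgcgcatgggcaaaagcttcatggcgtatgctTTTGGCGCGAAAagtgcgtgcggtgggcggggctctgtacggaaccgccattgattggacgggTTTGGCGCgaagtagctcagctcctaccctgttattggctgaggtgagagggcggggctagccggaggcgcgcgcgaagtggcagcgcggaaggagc
Mcm5: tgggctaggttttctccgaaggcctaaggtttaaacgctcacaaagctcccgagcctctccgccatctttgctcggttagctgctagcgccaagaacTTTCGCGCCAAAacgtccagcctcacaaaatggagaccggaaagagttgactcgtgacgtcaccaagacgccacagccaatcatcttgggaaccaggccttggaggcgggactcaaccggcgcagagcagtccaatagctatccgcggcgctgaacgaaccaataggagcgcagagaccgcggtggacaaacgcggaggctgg
Tyms: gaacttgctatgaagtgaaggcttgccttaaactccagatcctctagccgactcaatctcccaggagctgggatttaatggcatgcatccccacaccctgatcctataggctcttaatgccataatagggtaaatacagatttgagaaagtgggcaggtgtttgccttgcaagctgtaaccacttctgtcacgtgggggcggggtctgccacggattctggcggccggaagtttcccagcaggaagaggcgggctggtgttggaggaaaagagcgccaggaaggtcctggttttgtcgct

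All 3 printed mitotic promoters hold the CHR word, beginning at -5 in Prc1, at -71 and -15 in Cdk1 and at 31 in Plk1 relative to the start. Cdk1 also holds an E2F word, beginning at -131. Mcm6 has 3 E2F words, beginning at -110, -106 and -47, of which the first and second overlap, and Mcm5 has 2 overlapping words at -153 and -149. Tyms holds neither word in this window. Among all members with a window, the CHR word was present in 19 of 25 mitotic (76.0%) and 3 of 14 S-phase promoters (21.4%), against 18.2% of 27025 genes. An E2F word was present in 1 of 25 mitotic (4.0%) and 5 of 14 S-phase promoters (35.7%), against 2.33% of all genes. The CCAAT word, also searched on both strands, was present in 20 of 25 mitotic (80.0%) and 10 of 14 S-phase promoters (71.4%), against 38.0% of all genes. Genes of the same phases outside the member list had the CHR word in 36 of 68 mitotic and 6 of 39 replication promoters, and an E2F word in 9 of 68 and 11 of 39. These counts were not limited to windows near the outermost annotated start. The window lay 3852 bases inside the gene for Kif2c, 477 for E2f8, 466 for E2f1 and 442 for Cdc6. It lay 375 bases inside for Ect2, 316 for Aurka, 228 for Mcm7 and 71 for Mki67. Of these, Kif2c, E2f8, Ect2, Aurka and Mki67 held the CHR word, and Cdc6 and Mcm7 an E2F word. A match describes the letters of the window and not binding in this tissue.

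Among regulators of entry into S phase, no member passed the test. The factor E2f1, which activates replication genes, had log2 signals of 4.70, 5.13, 5.21 and 5.05 on mgR611, mgR612, mgR613 and mgR614, against 4.54, 4.47, 4.58 and 4.53 on WT675, WT676, WT742 and WT744. Every mutant array was above every wild-type array, and the difference was 0.49 (SE 0.120, limma adjusted p = 0.0771). Ccne1 and Ccne2 encode cyclins E1 and E2, which activate CDK2 at the start of S phase. Their differences were 0.58 (adjusted p = 0.260) and 0.37 (adjusted p = 0.503), and the genotypes overlapped in both. E2f8, an E2F that represses transcription, was at 0.34 (adjusted p = 0.466).

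The MCM proteins form the ring-shaped helicase that opens DNA at origins, and Mcm6 stood apart from the other measured subunits. Its log2 signal was 7.21, 7.25, 7.67 and 6.08 on mgR611, mgR612, mgR613 and mgR614, against 4.98, 4.79, 4.99 and 5.34 on the wild-type arrays WT675, WT676, WT742 and WT744. The genotypes were separated by 0.74 log2 units between mgR614 and WT744, and 3 mutant arrays were above 7. Mcm6 averaged 7.05 ± 0.681 in Fbn1mgR/mgR and 5.03 ± 0.229 in wild-type arrays (log2, SD, n = 4 each), and rose by 2.03 (SE 0.301, limma adjusted p = 0.00984), or 4.08-fold. It passed with any 1 array left out (adjusted p = 0.00188 to 0.0367), but not without both mgR613 and WT744 (1.93, adjusted p = 0.0567). Its lowest mutant value was on mgR614, the highest mutant array for 19 of the 43 members.

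The partners of MCM6 in the same ring had smaller differences. Mcm2 was at 5.35, 5.64, 6.04 and 5.80 on mgR611, mgR612, mgR613 and mgR614, against 5.37, 5.39, 5.41 and 5.52 on the 4 wild-type arrays in the same order as above. One mutant array, mgR611, lay below all 4 wild-type arrays, and the difference was 0.29 (SE 0.147, adjusted p = 0.433). Mcm5 had 5.57, 6.01, 5.98 and 6.11 in the mutant and 5.45, 5.47, 5.38 and 5.58 in the wild type, with a difference of 0.45 (SE 0.133, adjusted p = 0.151). Only mgR611 overlapped the wild-type values of Mcm5, and only by 0.010 log2 units. Differences of Mcm3 and Mcm4 were 0.32 and 0.36, and neither passed. The difference between subunits was not itself tested. Of the genes near Mcm6 on chromosome 1, Ubxn4 was at 0.21 (adjusted p = 0.606), R3hdm1 at -0.12 (adjusted p = 0.760) and Cxcr4 at 0.35 (adjusted p = 0.827). Lct was too dim to be tested, and Dars, also looked for, was not found under that symbol alone. An effect local to this stretch of the chromosome was not tested.

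**Figure D2:**
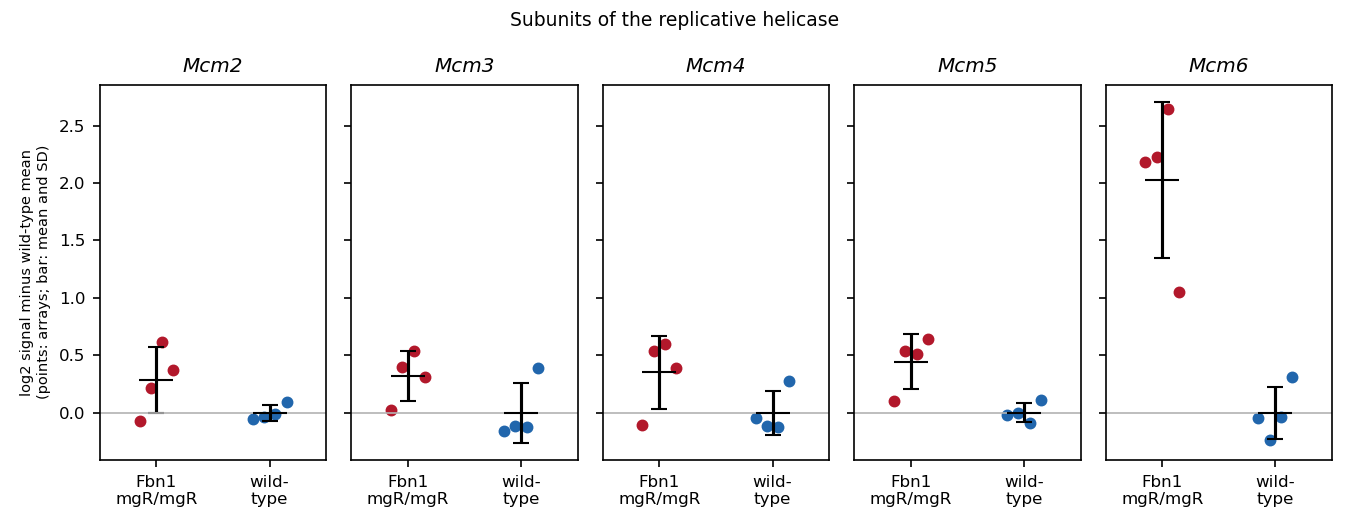
Log2 signal of 5 helicase subunits minus the wild-type mean of each gene (vertical axis), for the 4 Fbn1mgR/mgR and the 4 wild-type arrays (points), with the mean and SD (bars). Mcm6 arrays of the mutant lie 1.06 to 2.65 above the wild-type mean, while all arrays of Mcm2 to Mcm5 lie no more than 0.64 from it.

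Cdc6, which loads the helicase onto origins, and Cdc45, a component of the active helicase, had the smallest S-phase differences, 0.19 (adjusted p = 0.637) and 0.15 (adjusted p = 0.714). Enzymes of DNA synthesis lay in between. Tyms, the thymidylate synthase that makes the DNA precursor dTMP, had 7.82, 8.33, 8.75 and 8.67 on the mutant arrays, against 7.72, 7.70, 7.52 and 7.89 on the wild-type arrays. Only mgR611 fell within the wild-type range, and the difference was 0.68 (SE 0.208, adjusted p = 0.158). Pcna, the sliding clamp of DNA polymerases, had 11.62, 11.70, 12.09 and 11.94 in the mutant, against 11.55, 11.12, 11.22 and 11.69 in the wild type. The array mgR611 was below WT744 and mgR612 was only 0.010 above it, and the difference was 0.44 (SE 0.171, adjusted p = 0.273). Rrm1 and Rrm2, the subunits of ribonucleotide reductase, were at 0.46 and 0.52 and did not pass.

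Mitotic regulators had larger differences and a wider spread. Cdk1, the kinase that starts mitosis, was at 5.43, 5.83, 6.53 and 6.82 on mgR611, mgR612, mgR613 and mgR614, against 5.22, 4.67, 5.10 and 5.31 on WT675, WT676, WT742 and WT744. The genotypes did not overlap, with a gap of 0.12, and the difference was 1.08 (SE 0.291, adjusted p = 0.111), or 2.11-fold. Ccna2 (cyclin A2) and Ccnb2 (cyclin B2), which activate CDK1, were at 1.25 (adjusted p = 0.193) and 0.82 (adjusted p = 0.392). Mki67 encodes Ki-67, the proliferation marker that coats mitotic chromosomes. Its signal was 8.50, 9.06, 10.62 and 10.61 on the mutant arrays and 8.20, 7.92, 7.96 and 9.74 on the wild-type arrays. WT744 was above 2 of the 4 mutant arrays, mgR611 and mgR612, and the difference was 1.24 (SE 0.563, adjusted p = 0.363). The SD of Mki67 was 1.08 between mutant arrays and 0.866 between wild-type arrays. Top2a, the topoisomerase that untangles sister chromatids, had a difference of 1.04 (adjusted p = 0.317).

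**Figure D3:**
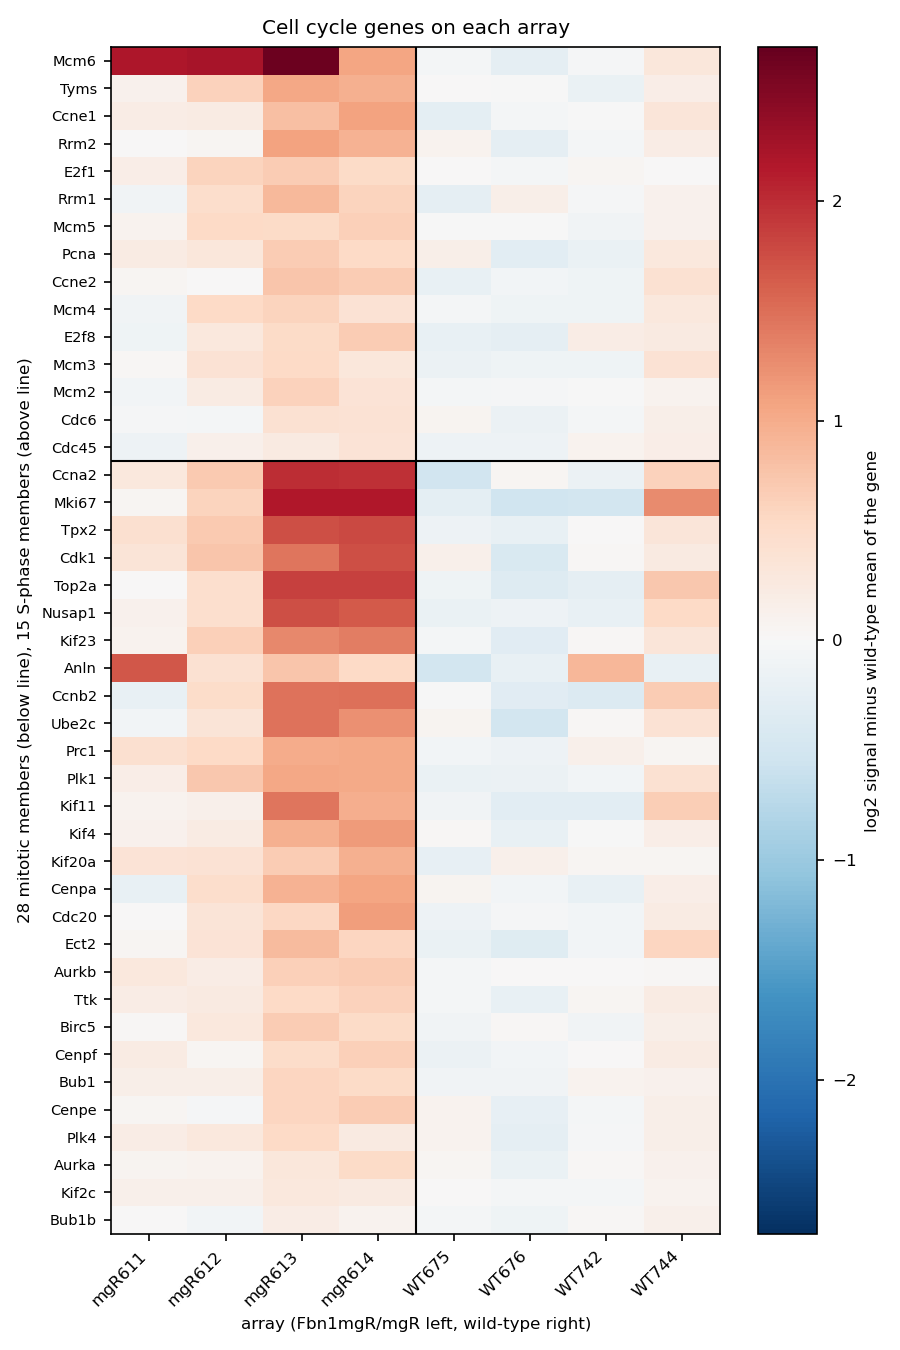
Log2 signal of each of the 43 measured members (rows, S-phase above and mitotic below the line, by size of the difference) minus its wild-type mean, on each array (columns, Fbn1mgR/mgR left and wild-type right). The columns mgR613 and mgR614 are the darkest for most mitotic members, and WT744 is the darkest wild-type column. Mcm6 and Anln are among the members that depart from that order.

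Of 8 mitotic kinases and checkpoint genes, none passed limma, and 6 had an unadjusted p under 0.05. Plk1, a kinase of mitotic entry and spindle assembly, was at 5.60, 6.16, 6.47 and 6.45 on the mutant and 5.25, 5.27, 5.35 and 5.84 on the wild-type arrays. WT744 exceeded mgR611, and the difference was 0.74 (SE 0.215, adjusted p = 0.139). Aurkb, the kinase of the chromosomal passenger complex, had 4.60, 4.52, 4.95 and 4.99 against 4.27, 4.32, 4.33 and 4.34. Its genotypes did not overlap and its wild-type arrays spanned only 0.07, with a difference of 0.45 (SE 0.121, adjusted p = 0.111). Birc5 (survivin), a partner of AURKB in that complex, was at 0.38 (adjusted p = 0.256). Ttk, a kinase of the spindle checkpoint, had 4.08, 4.14, 4.43 and 4.52 in the mutant, against 3.83, 3.69, 3.93 and 4.10 in the wild type, where its mean lay in the range of dim signals. Its difference was 0.41 (SE 0.129, adjusted p = 0.178), and mgR611 fell below WT744. The checkpoint genes Bub1 and Bub1b differed by 0.36 (adjusted p = 0.213) and 0.06 (adjusted p = 0.859), and that of Bub1b was the smallest among the members. The wild-type mean of Bub1, 4.02, also lay in the dim range, so the sizes given for Bub1 and Ttk rest on wild-type values not clear of background. Plk4, the kinase of centriole duplication, was at 0.31 and Aurka, the centrosomal Aurora kinase, at 0.24.

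Spindle genes held the third largest mitotic difference. Tpx2, an activator of Aurora A and a spindle assembly factor, had 5.94, 6.21, 7.24 and 7.29 on mgR611, mgR612, mgR613 and mgR614, against 5.37, 5.29, 5.52 and 5.82 on the wild-type arrays. The genotypes did not overlap, and mgR613 and mgR614 were more than 1 log2 unit above the other mutant arrays. The difference was 1.17 (SE 0.307, adjusted p = 0.101), and it passed with the thymocyte mean as a covariate (1.29, adjusted p = 0.0380; 0.0380 to 0.286 over all settings). Nusap1, a microtubule-binding protein of the spindle, was at 1.0 (adjusted p = 0.254), and the motor genes Kif11, Kif4 and Kif2c at 0.66, 0.61 and 0.20, with none past the threshold. The centromere genes Cenpa, Cenpe and Cenpf had differences of 0.57, 0.32 and 0.36. Cdc20, the activator of the anaphase-promoting complex, and Ube2c, its ubiquitin-conjugating enzyme, were at 0.51 and 0.74, also below the threshold.

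Genes of cytokinesis included the second member that passed. Prc1, which bundles the microtubules of the central spindle, was at 4.88, 4.99, 5.45 and 5.48 on mgR611, mgR612, mgR613 and mgR614, against 4.39, 4.33, 4.60 and 4.51 on the wild-type arrays. The lowest mutant array was 0.28 above the highest wild-type array. Prc1 averaged 5.20 ± 0.309 in Fbn1mgR/mgR and 4.46 ± 0.121 in wild-type arrays (log2, SD, n = 4 each), and rose by 0.74 (SE 0.154, limma adjusted p = 0.0425), or 1.67-fold. This call was lost without any 1 array except mgR611, at adjusted p = 0.0532, 0.108 and 0.105 without mgR612, mgR613 and mgR614, and at 0.119, 0.110, 0.0702 and 0.108 without WT675, WT676, WT742 and WT744. It was also lost with mean brown fat signal added as a covariate (adjusted p = 0.0576), with no filter on dim clusters (0.0829) and without both mgR613 and WT744 (0.220).

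Kif20a, a kinesin of the cleavage furrow, had 4.87, 4.88, 5.18 and 5.45 in the mutant and 4.27, 4.62, 4.54 and 4.54 in the wild type. Its genotypes did not overlap, and the difference was 0.60 (SE 0.148, adjusted p = 0.0806). Kif23, the motor of the central spindle complex, had 5.68, 6.22, 6.87 and 6.95 in the mutant, against 5.53, 5.26, 5.61 and 5.90 in the wild type. WT744 was above mgR611, and the difference was 0.85 (SE 0.276, adjusted p = 0.183). Ect2, which activates RHOA at the furrow, was at 0.47 (adjusted p = 0.389). Anln encodes anillin, a scaffold of the contractile ring, and had an order of its own, with 9.80 on mgR611 as the highest mutant value and 9.02 on WT742 as the highest wild-type value (0.84, adjusted p = 0.318).

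**Figure D4:**
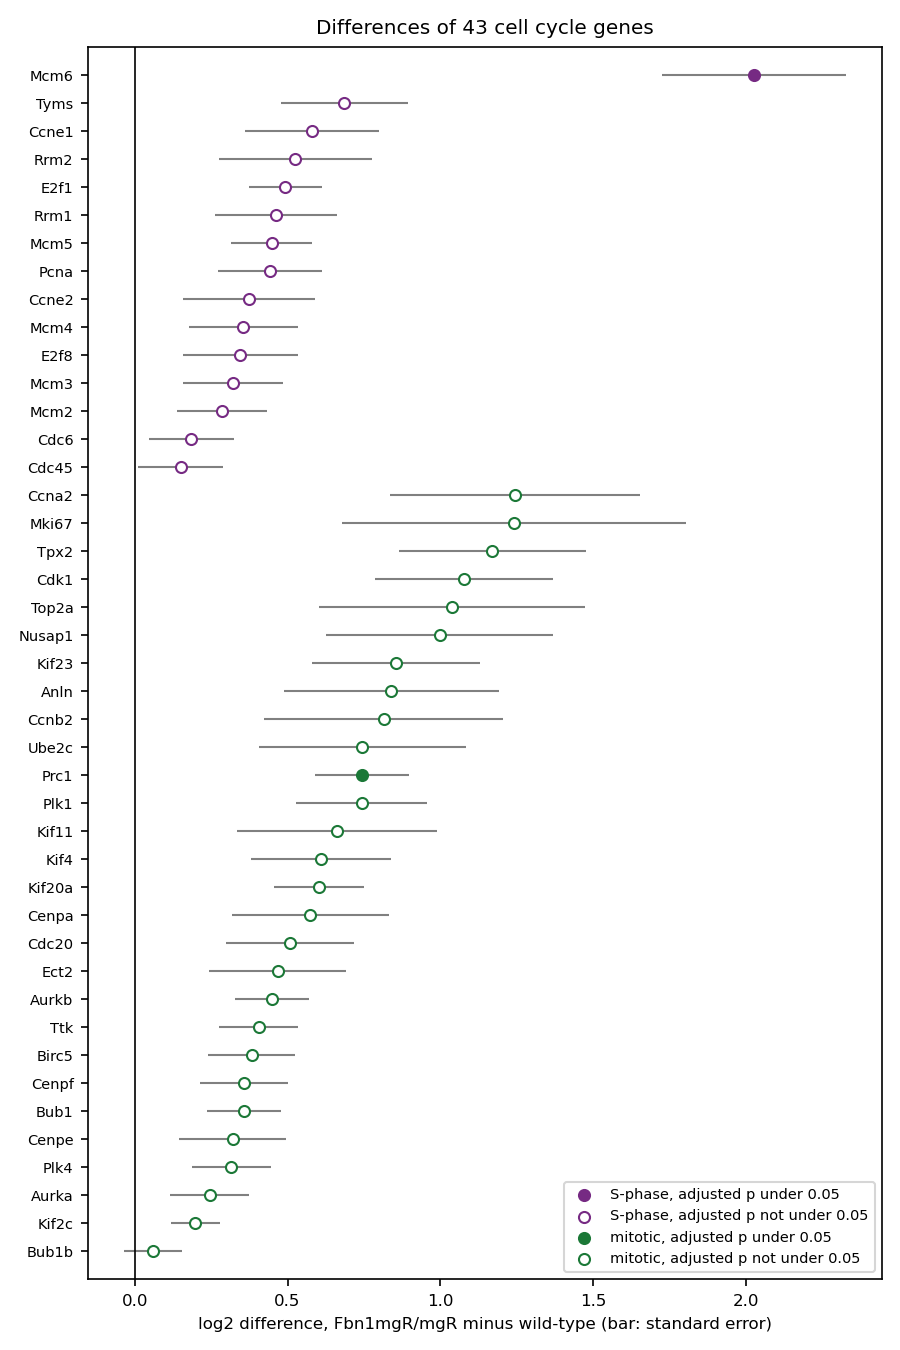
Log2 difference of each measured member, Fbn1mgR/mgR minus wild-type (horizontal axis), with its standard error from limma (bars), in purple for S-phase and green for mitotic members. All 43 points lie above 0, from 0.06 for Bub1b to 2.03 for Mcm6, and the filled points, Mcm6 and Prc1, are the members with an adjusted p under 0.05.

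Taking the phases side by side, the mean over the 28 mitotic members was 5.37, 5.55, 6.19 and 6.20 on mgR611, mgR612, mgR613 and mgR614, against 5.09, 5.0, 5.15 and 5.49 on WT675, WT676, WT742 and WT744. The 15 S-phase members averaged 6.09, 6.36, 6.73 and 6.56 on the mutant arrays and 5.85, 5.82, 5.88 and 6.14 on the wild-type arrays. In both phases mgR611 was below WT744, and the other mutant arrays were above all wild-type arrays. At an unadjusted p under 0.05, 20 of 28 mitotic (71.4%) and 7 of 15 S-phase members (46.7%) were higher, against 7.45% of all tested clusters. All mutant arrays lay above all wild-type arrays for 8 (28.6%) and 2 (13.3%), against 5.26% of all tested clusters. Without Mcm6 that S-phase count was 1 of 14 (7.14%). Apart from Mcm6, S-phase differences ran from 0.15 to 0.68, and mitotic differences from 0.06 to 1.25. Spread between mutant arrays was also wider in mitotic members, with a median SD of 0.436 against 0.318 in S-phase members, compared with 0.175 and 0.188 between wild-type arrays. Whether the phases differ was not tested, since the members of each were chosen by name and vary together.

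Without mgR611, 9 members rose, namely Mcm6, Prc1, Tpx2, E2f1, Tyms, Plk1, Mcm5, Kif23 and Cdk1, with 4 of them in S phase. In the same setting 521 clusters of all tested were called higher and 115 lower, against 507 and 184 with all arrays. The array mgR611 had the lowest mutant signal for 33 of 43 members, against 9 for mgR612. Each other array left out in turn gave 1 member, Mcm6. All 43 differences kept their direction in every alternative that could alter them, namely array weights, normalization, marker covariates and arrays left out.

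Among other genes of the same pathways, 1 passed the test, the CDK inhibitor gene Cdkn1a. For comparison, 1.54% of all tested clusters were called higher and 0.558% lower. With p under 0.05 before adjustment, 7.45% of all tested clusters were higher, and 2216 of the 32957 were lower. Of 65 other mitotic genes tested, 0 passed limma. Before adjustment (p under 0.05), 33 were higher and 0 lower, and the smallest p belonged to Arhgap11a (0.54, adjusted p = 0.0613), Mastl (0.91, adjusted p = 0.0931), the abscission gene Cep55 (1.0, adjusted p = 0.101) and Ckap2 (0.82, adjusted p = 0.111), whose wild-type mean of 3.88 was in the dim range. Of 39 other replication genes tested, 0 passed, with 6 higher and 0 lower before adjustment, led by Gins1, a subunit of the active helicase (0.41, adjusted p = 0.173). The medians over all measured genes of these lists were 0.31 and 0.11. Replication-dependent histone genes, whose near-identical copies may share probe signal, had 0 of 17 past the threshold and, before adjustment, 2 higher and 0 lower. Among 21 genes of G1 entry and the RB-E2F pathway, 0 passed, and 3 were higher and 2 lower before adjustment. The smallest p there were those of the kinase gene Cdk6 (0.72, adjusted p = 0.0577) and of Tfdp2, an E2F partner (-0.59, adjusted p = 0.0698). Of 4 CDK inhibitor genes tested, 1 was higher and 1 lower before adjustment. Cdkn1c, which encodes p57, was at -0.34 (adjusted p = 0.341), with overlapping genotypes, and Cdkn1b, which encodes p27, at -0.25 (adjusted p = 0.730). Cdkn1a, which encodes p21, rose by 1.89 (SE 0.290, adjusted p = 0.0116), with 12.78, 11.59, 12.12 and 11.25 on the mutant arrays, against 9.96, 10.12, 10.16 and 9.92 on the wild-type arrays. Its genotypes were more than 1 log2 unit apart, and its highest array, mgR611, was the one with the lowest mutant signal for most members.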

How the data were processed

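Ascending aorta RNA was measured on 8 Clariom D mouse arrays (Affymetrix), per the labels. The authors deposited normalized log2 signals for 65956 transcript clusters. Transcriptome Analysis Console is the tool listed, per the submitters' processing notes, with the normalization not given in the sources used here. Precision is limited by the number of arrays. The platform annotation gave 1 symbol to 30604 clusters, several to 2146 and none to 33206.

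Genotype came from the labels. limma 3.58.1 in R 4.3.3 (lmFit, eBayes with an intensity trend) was fitted to all clusters, and p-values were adjusted (Benjamini-Hochberg, threshold 0.05) over the 32957 clusters with a mean signal above 4.01, the median; all 43 measured members passed this filter. The 1225 olfactory receptor genes (median 3.38, 95th percentile 4.11) gave the range of dim signals. The members, lists and motifs were chosen with earlier results of these data known. Values per array are given for the 12 members with the smallest p and for Mki67, Pcna and Mcm2, and up to 4 genes are named per list. Printed promoters begin within 50 bases of the outermost annotated start. That of E2f1 lies 466 bases inside its gene and was left out of the printed set, but was counted in the motif search.

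The fit was tested on simulated data with known answers. Python 3.11.15, pandas 2.3.3 and matplotlib 3.10.9 made the tables and figures. Alternatives covered the filter, threshold, trend, weights, normalization, marker covariates and each array left out.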

Additional observations from a re-analysis of the deposited data

Results flagged for a closer look

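WT744 stood away from the other wild-type arrays in 4 members. Its Mki67 signal was 9.74, against 7.92 to 8.20 on the other 3 arrays. Its Nusap1 signal was 6.11, against 5.37 to 5.44. For Plk1 it was 5.84, against 5.25 to 5.35, and for Mcm3 it was 6.45, against 5.90 to 5.95. In each of these the gap to the nearest array, divided by the range of the group, exceeded Dixon's critical value for 4 samples. Of 86 groups of 4 arrays examined (43 members in each genotype), these 4 were the ones past that value, and chance flags about 1 in 20 groups. The members vary together, so the 4 are not separate observations.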

How the results depend on the processing

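The direction of all 43 members was kept with array weights, other normalizations, marker covariates and arrays left out. The other settings leave the difference itself unchanged, so they could not alter its direction. Mcm6 passed in every alternative except the one without mgR613 and WT744. The count of members that rose, 2, was 1 with no filter on dim clusters, with only clusters above the upper quartile (where 25 members were not tested), with the brown fat covariate, with the variance prior taken from the tested clusters only, and at a threshold of 0.01. In each of these 0 mitotic members rose. It was 4 at a threshold of 0.1, with 2 in each phase, and 3 with the thymocyte covariate, 2 of them mitotic. Leaving out each array gave 1 to 9 members, 1 to 4 of S phase and 0 to 5 mitotic. Without mgR613 and WT744, 0 members rose in either phase.

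Over all clusters, 507 higher and 184 lower became 187 and 40 at a threshold of 0.01, 816 and 393 at 0.1, and 117 and 31 without mgR613 and WT744. Leaving out mgR613 and WT744 and changing the variance prior were both chosen after seeing the data. The lower count was 99 with no filter and 121 with the thymocyte covariate. With each array left out, 272 to 521 clusters were higher and 67 to 146 lower. Fewer arrays leave fewer degrees of freedom; otherwise the cause was not tested. The median differences of both phases moved by less than the spread between arrays. Each member has 1 cluster, so a mean over clusters gives the same values. No paired analysis was possible because the genotypes share 0 array numbers.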
